A study of Mus musculus with 16 samples.

Results

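*Pitx1*, *Pitx3*, *Six4*, *Eya1*, *Eya4*, *Tbx15*, *Sox6* and *Prox1* encode 8 nuclear regulators of skeletal muscle that act on myogenesis and on the choice between slow and fast fibers. They were chosen by name as the rows carrying these gene symbols, 8 of the 24421 genes in the count tables, and all of them were counted in every library. Their RNA was described in 2 muscles of the mouse, the gastrocnemius (Gas), which is dominated by fast fibers, and the soleus (Sol), which is rich in slow fibers. The mice were wild type (WT) or lacked lysine-specific demethylase-1 (LSD1, gene *Kdm1a*), a histone demethylase, in muscle (LSD1-mKO).

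The animals were C57BL/6 males, aged 8 weeks at induction. LSD1-mKO mice were homozygous for a floxed *Lsd1* allele and carried CreERT2 under the human ACTA1 promoter, which is active in differentiating and differentiated muscle cells, so that the other cells of the muscle keep the gene. WT mice had the floxed allele without CreERT2. Both genotypes received tamoxifen at 75 mg/kg for 5 days and dexamethasone (Dex), a synthetic glucocorticoid that causes atrophy, at 1 mg/kg for 7 days from day 4 of tamoxifen. No untreated muscle is part of the comparisons, so each value is that of a muscle under Dex. Poly(A) RNA of 3 WT and 5 LSD1-mKO samples of each muscle was sequenced, 16 libraries in all.

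Fast and slow fibers use different myosins, troponins and calcium pumps, and transcription factors keep these programs apart. SIX4 and related homeoproteins bind MEF3 sites in muscle genes and recruit EYA proteins as co-activators, a pair best known for driving the fast program. PITX homeoproteins act in hindlimb patterning, myogenesis and muscle redox control. TBX15 is a T-box factor associated with glycolytic fibers, SOX6 is an HMG-box factor known for repressing slow fiber genes in fast fibers, and PROX1 is a homeodomain protein linked to the slow program and, outside muscle fibers, the defining factor of lymphatic endothelium.

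In the GRCm38 build, *Pitx1* lies at chr13:55825051-55836192, *Pitx3* at chr19:46135685-46148326, *Six4* at chr12:73099609-73113456, *Eya1* at chr1:14168954-14310235, *Eya4* at chr10:23102963-23350786, *Sox6* at chr7:115470872-116038796 and *Prox1* at chr1:190118035-190170714, each on the minus strand. *Tbx15* lies on the plus strand at chr3:99240381-99354259. The last exon of *Pitx3* shares 10 bases with *Elovl3* on the other strand, and exons of *Prox1* and *Pitx1* overlap antisense transcripts by 133 and 165 bases. The counting was not set to use strand, so reads in these overlaps cannot be told apart.

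RefSeq promoter sequences matched 5 of the 8 genes (*Pitx3*, *Six4*, *Eya4*, *Sox6* and *Prox1*, GRCm38.p6). The 250 bases before the start of *Pitx3* and before 1 of the 2 starts of *Prox1* are shown because these genes were higher in WT Sol than in WT Gas. From *Six4*, 30 bases are shown because they hold a perfect match to the MEF3 site, the sequence that SIX4 and its relatives themselves bind. In *Pitx3* and *Prox1*, capitals mark matches on either strand to the E-box CANNTG, bound by MyoD family factors, and to the NFAT core GGAAA. In *Six4* they mark the match to the MEF3 site TCAGGTTTC alone.
Pitx3, chr19:46148326-46148575, minus strand: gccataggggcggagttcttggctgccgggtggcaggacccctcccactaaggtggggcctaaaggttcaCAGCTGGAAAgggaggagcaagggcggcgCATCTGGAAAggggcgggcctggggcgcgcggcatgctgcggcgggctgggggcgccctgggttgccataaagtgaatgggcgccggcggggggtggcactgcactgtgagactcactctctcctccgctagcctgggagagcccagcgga
Prox1, chr1:190170828-190171077, minus strand: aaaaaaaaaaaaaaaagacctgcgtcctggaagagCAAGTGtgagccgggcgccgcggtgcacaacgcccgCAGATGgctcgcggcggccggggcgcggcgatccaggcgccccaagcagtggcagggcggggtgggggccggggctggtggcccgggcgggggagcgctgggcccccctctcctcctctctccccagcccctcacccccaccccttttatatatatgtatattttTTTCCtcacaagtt
Six4, chr12:73113325-73113354, minus strand: tggcctggggGAAACCTGAtcggccagatc

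The *Pitx3* window held 2 E-boxes, each running into an NFAT core that starts on the last base of the E-box. The *Prox1* window shown held 2 E-boxes, and 1 NFAT core 10 to 14 bases before its start. That window does not border the *Prox1* span given above. The window of the other *Prox1* start, which lies inside the span, held 0 E-boxes and 2 NFAT cores. E-boxes and NFAT cores are common, being present in 66.2% and 55.6% of 32851 RefSeq promoters of this length. The MEF3 sequence is rare, present in 0.387% of them. Among the 13 promoters of the 5 genes, only 1 of the 2 *Six4* promoters held it. It lay 91 to 99 bases before the start of that promoter, where its first 4 bases also belong to an NFAT core. That start is an internal one, and the printed stretch lies inside the *Six4* span given above. The longer PITX (TAATCC) and T-box (GGTGTGA) sequences occurred in 6.25% and 3.33% of promoters and, among these genes, each in 1 promoter of *Sox6*. The SOX core ACAAT, in 27.7% of promoters, was found in 3 of the 6 *Sox6* promoters and in none of the other four genes. These are matches of letters, with no measure of binding, and gene-level counts do not tell which start was used.

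The libraries held 10130415 to 24576377 counted reads, at which 3 reads, the most that a count of 0 allows, correspond to 0.122 to 0.296 on the scale of counts-per-million (CPM). Counting error alone is covered by that limit. *Kdm1a* averaged 41.8 ± 5.69 CPM in WT and 14.1 ± 2.19 CPM in LSD1-mKO Gas, and 34.1 ± 0.749 and 10.9 ± 1.72 CPM in Sol (SD, n = 3 and 5). All 10 slow fiber genes examined were called higher in Sol in each genotype (edgeR adjusted p under 0.05), against 8.75% of all genes in WT and 12.9% in LSD1-mKO. Of 13 fast fiber genes 11 were called lower in each, against 8.25% and 11.6%, as the muscle labels say. *Casq1* was called in WT alone and *Atp2a1* in LSD1-mKO alone. The fast gene *Myh1*, not called, was higher in Sol, by 0.82 on the log2 scale in WT without overlap and by 0.63 in LSD1-mKO with overlap. Across 77 ribosomal protein genes, 3 libraries stood above their groups: WT Gas replicate 3 at a mean log2 CPM of 8.58 and LSD1-mKO Gas replicate 5 at 7.96, with the other Gas libraries at 7.16 to 7.54, and WT Sol replicate 2 at 7.32, with the other Sol libraries at 6.46 to 6.87. The log2 differences are also given without these 3 libraries. The counts of Gas and Sol come from separate tables whose libraries carry names of different form, and what these names stand for is not given in the sources used here. A difference in handling between the tables, if there was one, cannot be told apart from muscle.

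Per length, the 8 genes spanned more than 2 orders of magnitude, and the order differed between muscles. On the RPKM scale, which divides CPM by the exon length in kilobases, *Tbx15* was the most abundant in every group, at 68.9 ± 8.20 in WT Gas and 45.3 ± 3.44 in WT Sol (SD, n = 3). *Sox6* came next in WT Gas at 15.0 ± 2.67, above *Pitx3* at 8.97 ± 0.280, with no overlap between the 3 libraries of one and of the other. In WT Sol the order of these genes was reversed, with *Pitx3* at 22.6 ± 9.59 and *Sox6* at 8.84 ± 3.12, again without overlap. *Eya4*, *Eya1* and *Six4* formed a middle group in WT Gas at 3.84 ± 2.53, 3.78 ± 1.18 and 3.59 ± 2.51 RPKM, and these neighbours overlapped. *Prox1* was the least abundant in WT Gas at 0.102 ± 0.0280 RPKM, below *Pitx1* at 0.580 ± 0.299. In WT Sol it rose to 1.08 ± 0.728 RPKM, within the range of *Eya4* at 0.966 ± 0.161, while *Pitx1* stood last at 0.584 ± 0.353. In LSD1-mKO mice *Sox6* and *Pitx3* overlapped in Gas, at 15.4 ± 5.68 and 10.7 ± 3.06 RPKM (SD, n = 5). In LSD1-mKO Sol they did not, at 6.84 ± 1.97 and 16.6 ± 4.13 RPKM.

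**Figure D1:**
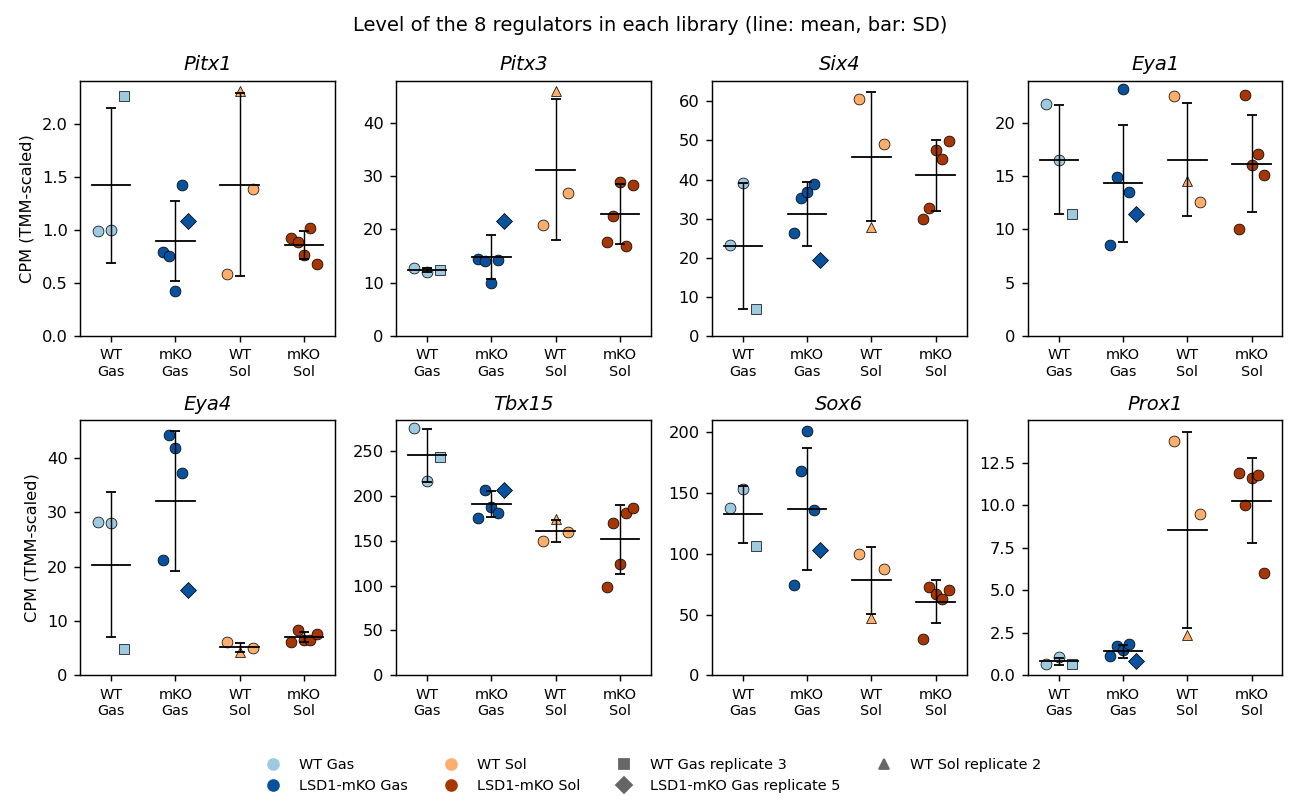
CPM of each of the 8 regulators in every library (linear axes from 0, 1 panel per gene), with the group mean as a line and the SD as a bar (n = 3 WT, n = 5 LSD1-mKO per muscle). Squares, diamonds and triangles are the 3 libraries of high ribosomal protein level. The Gas libraries hold 0.680 to 1.81 CPM of *Prox1*, all below the 2.39 to 13.8 CPM of the Sol libraries, and *Eya4* lies below 8.3 CPM in every Sol library.

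The comparison of muscles asked which regulators set Sol apart from Gas, first in WT mice. *Prox1* and *Pitx3* were higher in Sol and *Eya4* was lower, and the other five genes did not pass the test. These 3 of 8 genes compare with 17% of 13749 genes called in either direction, 8.75% higher and 8.25% lower (edgeR quasi-likelihood test, Benjamini-Hochberg adjusted p under 0.05). The libraries of the muscles did not overlap for 4 of the 8 genes, against 30.3% of all genes. WT and LSD1-mKO values entered 1 fit of 16 libraries, which share the estimate of spread and no muscle sample.

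*Prox1* showed the greatest contrast. WT Gas libraries held 0.680, 1.06 and 0.680 CPM and WT Sol libraries 13.8, 2.39 and 9.49 CPM. The Gas values rest on 13, 18 and 6 reads, and the Sol values on 258, 34 and 164. Every Sol library was above every Gas library, and the low value in Sol came from the library of high ribosomal protein level. The difference was 3.38 on the log2 scale, or 10.4-fold (SE 0.514, 95% confidence interval 2.30 to 4.46, edgeR adjusted p = 0.00028). Without the 3 libraries of high ribosomal protein level it was 3.72 (adjusted p = 4.09e-05), and 1.81 after the ribosomal protein level was entered as a covariate (adjusted p = 0.0294). That level differed between the muscles and also between libraries of a group, and the share of either in the lower value was not tested.

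Since PROX1 marks lymphatic endothelium, 6 lymphatic genes were read alongside. Their summed level was 50.5 to 62.9 CPM in WT Gas and 43.7 to 45.1 CPM in WT Sol, without overlap. *Lyve1*, a hyaluronan receptor of lymphatic vessels, ranged from 23.3 to 41.9 CPM in WT Gas and from 14.2 to 26.9 CPM in WT Sol. *Pdpn*, a membrane glycoprotein, ranged from 5.33 to 6.21 and from 3.99 to 5.29 CPM, and was the one marker whose libraries separated. The ranges of *Mmrn1* (3.40 to 4.91 and 3.72 to 5.21 CPM), *Flt4* (4.65 to 11.1 and 4.49 to 11.8 CPM) and *Reln* (4.96 to 7.25 and 5.82 to 7.16 CPM) overlapped. *Ccl21a*, a lymphatic chemokine, had 0 reads in every library. The part of lymphatic cells in the *Prox1* difference was not tested. In whole muscle, a change in the number of cells of a type and a change in RNA per cell cannot be told apart.

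*Eya4*, a co-activator of SIX4 and a protein phosphatase, had the opposite pattern. WT Gas libraries held 28.3, 28.0 and 4.87 CPM and WT Sol libraries 6.04, 4.35 and 4.98 CPM. The ranges overlapped through WT Gas replicate 3 alone. The level in Sol was 4.01-fold lower, a log2 difference of -2.003 (SE 0.479, adjusted p = 0.00877). Without the libraries of high ribosomal protein level the difference was -2.37 (adjusted p = 0.000124). Fitted on the 6 WT libraries alone it was -2.01 and no longer passed (adjusted p = 0.0783).

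*Pitx3*, a homeoprotein of the differentiating myoblast, was the third gene called. Its WT Gas libraries held 12.8, 12.0 and 12.4 CPM, and WT Sol libraries 20.8, 46.1 and 26.8 CPM. Every Sol library was above every Gas library, with the highest value in the Sol library of high ribosomal protein level. The log2 difference was 1.33, or 2.52-fold (SE 0.304, adjusted p = 0.00639), and 0.92 without the libraries of high ribosomal protein level (adjusted p = 0.0277). The 5 satellite cell markers, genes of the muscle stem cell, were also higher in WT Sol, summing to 40.4 to 56.1 CPM against 27.8 to 30.5 CPM in WT Gas. Their part in the *Pitx3* difference was not tested.

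*Tbx15* and *Sox6*, both linked to fast fibers, were below their Gas values in every WT Sol library without passing the test. *Tbx15* held 276, 217 and 244 CPM in WT Gas and 150.2, 175 and 159.6 CPM in WT Sol, a log2 difference of -0.61 (SE 0.212, adjusted p = 0.0585). DESeq2 called the same difference (-0.62, adjusted p = 0.0251), and without the libraries of high ribosomal protein level it was -0.69 (adjusted p = 0.0693). *Sox6* held 138, 153 and 107 CPM in WT Gas and 99.98, 47.2 and 87.7 CPM in WT Sol, a log2 difference of -0.76 (SE 0.362, adjusted p = 0.16). *Sox6* passed once the ribosomal protein level was entered as a covariate (-1.52, adjusted p = 0.0249), while without the libraries of high ribosomal protein level it was -0.65 (adjusted p = 0.275). Their ranges were thus separate in a design with 3 libraries a group.

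*Six4*, the homeoprotein partner of the EYA co-activators, held 23.1, 39.0 and 6.80 CPM in WT Gas and 60.5, 27.9 and 49.2 CPM in WT Sol. The lowest library of each muscle was the one of high ribosomal protein level, and the ranges overlapped. The log2 difference was 0.99 (SE 0.433, adjusted p = 0.128). It turned to -0.28 with the ribosomal protein covariate (adjusted p = 0.504), and was 0.80 without the libraries of high ribosomal protein level (adjusted p = 0.0612). Among the alternatives it passed only without WT Gas replicate 2 (1.60, adjusted p = 0.0242). *Eya1* averaged 16.6 ± 5.16 CPM in WT Gas and 16.6 ± 5.28 CPM in WT Sol, with an interval of -0.74 to 0.72 for the log2 difference. *Pitx1*, a hindlimb identity factor, averaged 1.42 ± 0.732 and 1.43 ± 0.865 CPM, with an interval of -0.95 to 1.05. Without the libraries of high ribosomal protein level the values were -0.14 and -0.0414. These intervals leave room for differences of more than 1.6-fold in either direction.

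In LSD1-mKO mice the same comparison called *Prox1* as higher and *Eya4* and *Sox6* as lower in Sol, 3 of 8 genes, against 24.5% of 13749 genes, 12.9% higher and 11.6% lower. The libraries did not overlap for 3 genes, against 20.9% of all genes. *Prox1* held 1.12, 1.72, 1.49, 1.81 and 0.860 CPM in LSD1-mKO Gas (15 to 25 reads a library), all below the 11.9, 10.003, 11.6, 11.8 and 6.03 CPM of LSD1-mKO Sol. The log2 difference was 2.90, or 7.46-fold (SE 0.372, adjusted p = 3.03e-05), and 2.76 without the libraries of high ribosomal protein level. The lymphatic markers summed to 40.5 to 54.1 CPM in LSD1-mKO Gas and 30.5 to 59.3 CPM in LSD1-mKO Sol, ranges that overlapped.

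*Eya4* in LSD1-mKO Gas was 21.1, 44.2, 41.9, 37.3 and 15.7 CPM, and in LSD1-mKO Sol 6.10, 8.24, 6.57, 6.50 and 7.55 CPM. Here all Gas libraries, also the one of high ribosomal protein level, lay above all Sol libraries. The level was 4.58-fold lower in Sol (log2 difference -2.20, SE 0.366, adjusted p = 0.000338), with -2.38 when the libraries of high ribosomal protein level were left out. *Sox6* in LSD1-mKO Gas was 74.6, 168, 201, 136 and 103 CPM, and in LSD1-mKO Sol 30.03, 72.7, 66.9, 63.0 and 70.3 CPM. The lowest library of each muscle carried replicate number 1, and the muscles did not overlap. The level was 2.26-fold lower in Sol (log2 difference -1.17, SE 0.283, adjusted p = 0.00601), with -1.27 when those libraries were left out.

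The 5 genes not called included *Pitx3*, with 14.4, 14.0, 9.87, 14.2 and 21.6 CPM in LSD1-mKO Gas and 17.6, 22.5, 28.9, 17.0 and 28.4 CPM in LSD1-mKO Sol. One Gas library, the one of high ribosomal protein level, reached into the Sol range. The log2 difference was 0.62 (SE 0.232, adjusted p = 0.0587). Without the libraries of high ribosomal protein level it was 0.79 and passed (adjusted p = 0.00609). *Tbx15* differed by -0.34 (adjusted p = 0.144), *Six4* by 0.40 (adjusted p = 0.413), *Eya1* by 0.18 (adjusted p = 0.669) and *Pitx1* by -0.05 (adjusted p = 0.946). Without the libraries of high ribosomal protein level these were -0.32, 0.26, 0.10 and 0.04. *Pitx3* also passed by DESeq2 (0.60, adjusted p = 0.0498), with the ribosomal protein covariate (1.02, adjusted p = 0.00459) and in a fit of the LSD1-mKO libraries alone (0.61, adjusted p = 0.0456). That fit called 4 of the 8 genes, against 29.7% of 13151 genes. Same-numbered LSD1-mKO libraries of both muscles deviated together, and with the replicate number as a block in the fit of these libraries 5 of the 8 passed, against 38.5% of genes. *Tbx15* was the one added by the block (-0.39, adjusted p = 0.0466, against 0.141 without it).

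**Figure D2:**
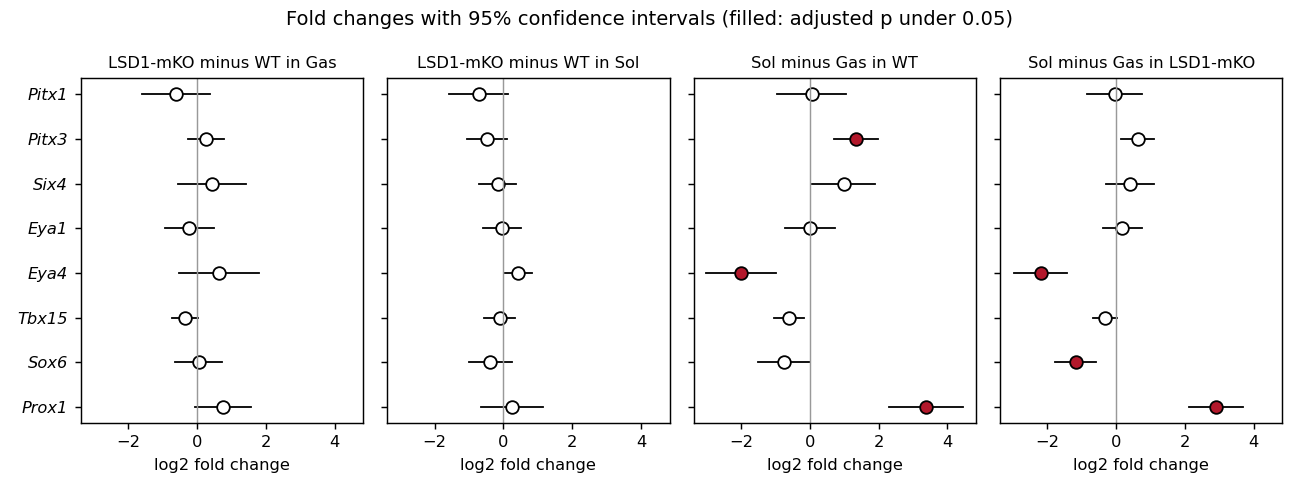
Log2 fold change of each regulator (points) with its 95% confidence interval (lines) in the 4 comparisons, 1 panel each, on a shared axis; filled points have an adjusted p under 0.05. The filled points are all in the muscle panels, *Prox1* at 3.38 and 2.90, *Eya4* at -2.003 and -2.20, *Pitx3* at 1.33 in WT and *Sox6* at -1.17 in LSD1-mKO.

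The 4 EYA genes were compared per length, as they can partner the same homeoproteins. *Eya4* made up 12.7 to 35.5% of the summed EYA RPKM in WT Gas, with a median of 34.3% and the lowest share in WT Gas replicate 3, and 8.87 to 9.11% in WT Sol. In LSD1-mKO its share was 26.8 to 45.3% in Gas and 10.3 to 13.9% in Sol. Within each genotype, its share was lower in every Sol library than in any Gas library. *Eya3*, which has a wide expression, held 22.1 to 30.8% in WT Gas and 35.7 to 47.1% in WT Sol. *Eya4* exceeded *Eya1* in WT Gas replicates 1 and 2, at ratios of 1.07 and 1.40, and not in replicate 3, at 0.352. It was at 0.221 to 0.328 of *Eya1* in WT Sol. The LSD1-mKO ratios were 1.14 to 2.45 in Gas and 0.301 to 0.504 in Sol.

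**Figure D3:**
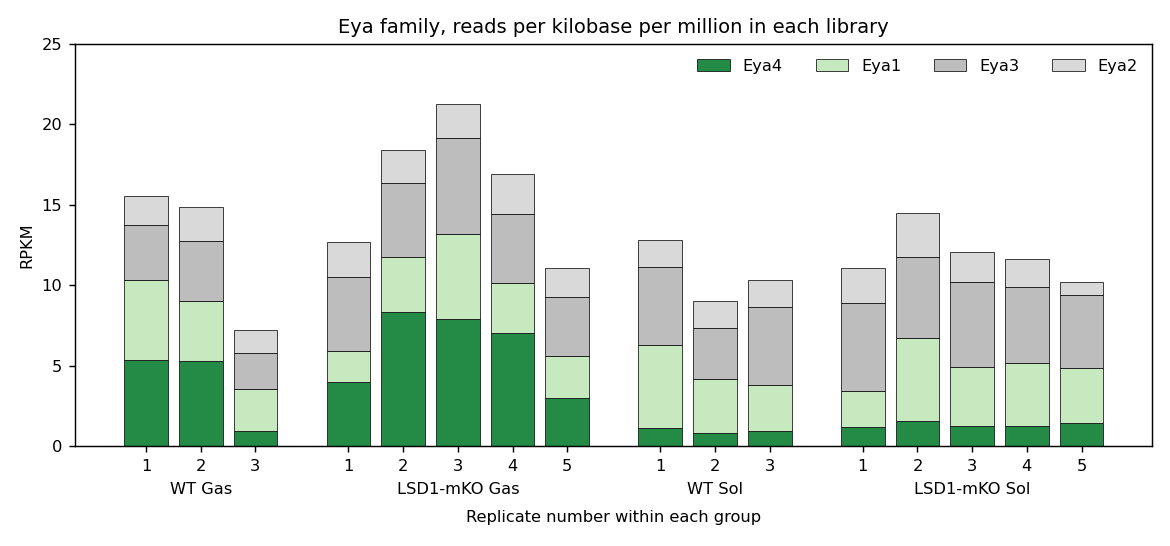
RPKM of *Eya4*, *Eya1*, *Eya3* and *Eya2* stacked for each library, in the 4 groups of replicates (bars start at 0). The *Eya4* segment is the tallest in 3 of the 5 LSD1-mKO Gas libraries and the smallest or next to smallest in every Sol library.

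Among 19 relatives listed (other genes of the homeobox, EYA, DACH, T-box and SOXD families), 16 were abundant enough to be tested. In WT mice those higher in Sol included *Dach2*, *Tbx1*, *Tbx3* and *Tbx4*, and *Six2* was lower, with a median log2 difference over the list of 0.34 against -0.01 over all genes. In LSD1-mKO mice those higher included *Dach2*, *Tbx18*, *Tbx3* and *Tbx4*, and *Six2* was again lower, with a median of 0.25. *Six2*, a homeoprotein gene, was 32.1-fold lower in WT Sol (log2 difference -5.01, SE 0.389, adjusted p = 5.64e-07) and 32.0-fold lower in LSD1-mKO Sol (-5.00, SE 0.298, adjusted p = 1.32e-08). Its level was 17.6 ± 1.70 CPM in WT Gas and 0.555 ± 0.277 CPM in WT Sol. *Tbx3* and *Tbx4*, T-box factors of limb development, were 2.30-fold and 1.71-fold higher in WT Sol (adjusted p = 0.00065 and 0.0414).

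The comparison of genotypes asked whether loss of LSD1 under Dex changed the regulators within a muscle. None of the 8 genes passed in either muscle by edgeR. In Gas, 0 of 8 were called, against 0.0307% of 13040 genes, and none had an unadjusted p under 0.05, against 9.06% of them. In Sol, 0 of 8 were called, against 0.967% of 13342 genes, and 1 had an unadjusted p under 0.05, against 15.5% of them. DESeq2 and edgeR's exact test also called 0 of 8 in each muscle.

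In Gas, *Tbx15* was the gene whose libraries separated, 1 of 8 against 6.95% of all genes. LSD1-mKO Gas held 176, 207, 188, 181 and 207 CPM, below the 217 CPM that was the lowest of WT Gas. The log2 difference was -0.35 (SE 0.167, interval -0.72 to 0.02, adjusted p = 0.555). The 5 markers of fibroblasts and mesenchymal progenitors, cells in which *Tbx15* can also be expressed, summed to 1105 to 1669 CPM in WT Gas and to 773 to 922 CPM in LSD1-mKO Gas, without overlap. Their part in the *Tbx15* difference was not tested. *Prox1*, at 0.808 ± 0.221 CPM in WT and 1.40 ± 0.402 CPM in LSD1-mKO Gas, differed by 0.75 with overlap (SE 0.366, adjusted p = 0.555). *Eya4*, at 20.4 ± 13.4 and 32.0 ± 12.8 CPM, differed by 0.64 (SE 0.522, adjusted p = 0.661). The interval for *Eya4* ran from -0.52 to 1.80, and without WT Gas replicate 3 the value was 0.20. For *Six4*, which held 31.3 ± 8.20 CPM in LSD1-mKO Gas, the log2 difference of 0.43 likewise went to 0.02 without that library. *Pitx1* (-0.61), *Eya1* (-0.22), *Pitx3* (0.26) and *Sox6* (0.04) had adjusted p of 0.627 to 0.96. Without both Gas libraries of high ribosomal protein level the values were -0.37 for *Tbx15*, 0.82 for *Prox1*, 0.38 for *Eya4*, 0.15 for *Six4*, -0.25 for *Pitx1*, -0.335 for *Eya1*, 0.10 for *Pitx3* and 0.01 for *Sox6*, and none passed.

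In Sol, *Eya4* was the gene whose libraries separated, 1 of 8 against 10.8% of all genes. LSD1-mKO Sol held 6.10 to 8.24 CPM, each above the 6.04 CPM that was the highest of WT Sol. The log2 difference was 0.43 (SE 0.178, unadjusted p = 0.0334 by edgeR's quasi-likelihood test, adjusted p = 0.274). *Prox1*, at 8.55 ± 5.76 CPM in WT and 10.3 ± 2.50 CPM in LSD1-mKO Sol, differed by 0.25 (SE 0.411, adjusted p = 0.824). Without WT Sol replicate 2, the library of high ribosomal protein level, this value was -0.18. *Pitx3*, at 31.2 ± 13.2 and 22.9 ± 5.69 CPM, differed by -0.47 (adjusted p = 0.435), and by -0.06 without that library. *Pitx1* differed by -0.72 (adjusted p = 0.422), *Sox6* by -0.38 (adjusted p = 0.575), *Six4* by -0.17 (adjusted p = 0.796), *Tbx15* by -0.10 (adjusted p = 0.862) and *Eya1* by -0.05 (adjusted p = 0.954). Without WT Sol replicate 2 these values were -0.19 for *Pitx1*, -0.635 for *Sox6*, -0.42 for *Six4*, -0.03 for *Tbx15* and -0.12 for *Eya1*, with *Eya4* at 0.34, and none passed.

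The difference of the genotype effect between muscles was tested as an interaction in the fit of 16 libraries. It called 0 of 8 regulators and 0% of 13749 genes, while 671 genes, 4.88%, had an unadjusted p under 0.05, none of them a regulator. DESeq2 called 21 genes, none of the 8. The largest estimate was that of *Pitx3*, -0.71 (SE 0.379, interval -1.51 to 0.09, adjusted p = 0.987). That of *Six4* was -0.59 (SE 0.543) and that of *Prox1* -0.48 (SE 0.627), so that differences of more than 2-fold between muscles in the genotype effect lie within the intervals for both. Without the libraries of high ribosomal protein level the estimate of *Prox1* was the largest, -0.96, with *Pitx3* at -0.14 and *Six4* at -0.55, and none passed.

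Of the relatives, *Dach2* was the one called between genotypes. DACH2 is a nuclear partner of EYA proteins. Its RNA was counted at 2.88, 5.85 and 2.95 CPM in WT Gas and at 1 to 6 reads a library in LSD1-mKO Gas. In WT Sol it stood at 33.3, 14.0 and 22.8 CPM, and in LSD1-mKO Sol at 0.0343, 0.706, 0.512, 3.60 and 4.09 CPM. All LSD1-mKO libraries were below all WT libraries in each muscle. The fitted log2 difference was -3.74 in Sol (SE 0.739, adjusted p = 0.0412) and -3.91 in Gas (SE 0.548, adjusted p = 0.0551). On the LSD1-mKO side these values rest on few reads, 1 to 6 in Gas and 1 to 88 in Sol, and in 3 libraries a single read was counted. The WT libraries held 26 to 99 reads in Gas and 200 to 623 in Sol. The other relatives did not pass in either muscle, where medians were 0.08 in Gas and 0.01 in Sol.

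Contractile and metabolic genes that mark slow and fast fibers were read in the same fits, and few passed by genotype. None of the 10 slow genes passed in Gas and 1 passed in Sol, *Casq2*, the slow calsequestrin, which was 2.14-fold higher (log2 difference 1.10, SE 0.165, adjusted p = 0.0155). None of the 13 fast genes passed in either muscle. Unadjusted p under 0.05 was reached by 3 of 10 slow and 6 of 13 fast genes in Gas, against 9.06% of all genes, with medians of 0.44 and -0.68 on the log2 scale against 0.01 over all genes tested. In Sol it was reached by 1 slow and 3 fast genes, against 15.5% of all genes, with medians of -0.06 and -0.22 against -0.01. Between muscles the median was 4.01 for the slow and -1.99 for the fast genes in WT mice, and 3.53 and -1.29 in LSD1-mKO mice. The ratio of *Prox1* to *Sox6* RPKM, which are regulators of opposite reputation, ran from 0.00553 to 0.00777 in WT Gas and from 0.0565 to 0.154 in WT Sol. It was 0.00829 to 0.0168 in LSD1-mKO Gas and 0.0960 to 0.445 in LSD1-mKO Sol.

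Markers of the cells that a whole muscle can hold were summed per library. Myofiber genes were at 50510 CPM or more in every library. Blood endothelium summed to 313 to 413 CPM in WT Gas and 453 to 533 CPM in WT Sol, without overlap, and to 242 to 391 and 357 to 514 CPM in LSD1-mKO, with overlap. Satellite cell markers in LSD1-mKO ran from 23.6 to 37.1 CPM in Gas and from 37.1 to 49.3 CPM in Sol. Tendon genes ran from 48.6 to 230.2 CPM over all libraries, adipocyte genes from 36.9 to 135 CPM, Schwann cell genes from 48.0 to 479 CPM and leukocyte genes from 11.1 to 96.6 CPM. *Ucp1*, a brown fat gene in the adipocyte list, had 0 reads in the 3 groups other than LSD1-mKO Sol. The part of these cells in the values of the regulators was not tested.

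Several of the regulators moved with the ribosomal protein level of the library. Over deviations from the 4 group means in 16 libraries, Pearson's r with that level was -0.93 for *Six4*, -0.88 for *Eya4* and -0.68 for *Prox1*, and 0.67 for *Pitx1* and 0.58 for *Pitx3*. It was -0.56 for *Sox6*, -0.49 for *Eya1* and 0.14 for *Tbx15*. *Six4* and *Eya4* deviated together (r = 0.87), as did *Eya1* and *Sox6* (r = 0.80), while *Pitx3* and *Prox1* deviated in opposite directions (r = -0.77). These are descriptions over libraries that share the 3 high ones, and the part of RNA quality or of sampling in them was not tested.

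**Figure D4:**
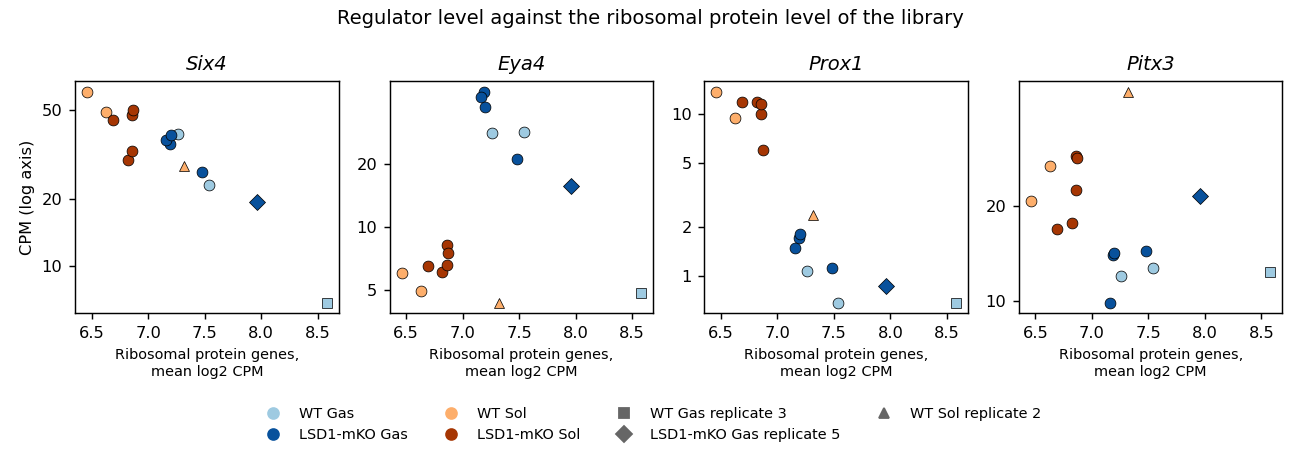
CPM of *Six4*, *Eya4*, *Prox1* and *Pitx3* (log axes) against the mean log2 CPM of 77 ribosomal protein genes, 1 point per library, coloured by group. *Six4* is at 60.5 CPM at the lowest ribosomal protein level, in a WT Sol library, and at 6.80 CPM at the highest, in a WT Gas library. That span mixes the muscles. From the lowest to the highest level within LSD1-mKO Gas, *Six4* goes from 36.7 to 19.3 CPM and *Eya4* from 41.9 to 15.7 CPM. Within WT Gas, *Six4* goes from 39.0 to 6.80 CPM and *Eya4* from 28.0 to 4.87 CPM, both low values being those of replicate 3.

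The genes whose log2 CPM followed each regulator most closely were sought among 9687 genes over the 16 libraries. *Prox1* was followed by *Lpgat1* (r = 0.98), *Abca5* (r = 0.98) and *Trak2* (r = 0.97), and *Eya4* by *H6pd*, *Dopey2* and *Sort1* (r = 0.96, 0.96 and 0.95). For *Six4* they were *Gpam*, *C230091D08Rik* and *Dock6* (r = 0.96, 0.96 and 0.95), and for *Sox6* *Ppp1r3a* and *Jph1* (r = 0.95 and 0.90). *Tbx15* was followed by *Klhl31*, *Myl1* and *Myoz3* (r = 0.93, 0.90 and 0.90), of which *Myl1*, a fast myosin light chain, stands in the fast fiber list. *Pitx3* was followed by *Wbp1*, *Pcbp4* and *Tbx1* (r = 0.89, 0.88 and 0.88), the last of them one of the relatives called in WT mice. *Pitx1* and *Eya1* had weaker followers, *Trp53i13*, *Sncg* and *Tsen34* (r = 0.80 to 0.81) and *Kcnj2*, *Vldlr* and *Trpm7* (r = 0.75 to 0.79). Between muscles and libraries of high ribosomal protein level, these correlations share their sources of spread. Over deviations from the 4 group means, r was 0.83 to 0.86 for the followers of *Prox1* and 0.85 to 0.86 for those of *Eya4*. It was 0.925 to 0.95 for *Six4*, 0.79 to 0.83 for *Tbx15* and 0.75 to 0.85 for *Pitx3*. For *Sox6* it was 0.90 and 0.85, for *Pitx1* 0.745 to 0.761, and for *Eya1* 0.77 to 0.82, above the values over all libraries.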

How the data were processed

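Poly(A) RNA of Gas and Sol from WT and LSD1-mKO mice was sequenced as single-end reads of 75 bases. The authors aligned the reads to mm10 with STAR (version not given in the sources used here) and counted them per gene with featureCounts 1.5.2, with no strand option. The deposited count tables hold whole-number counts per gene, not normalized. The deposited tables of fold changes and p-values hold the authors' own comparisons and were not used. 0 columns belonged to other samples.

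Groups were taken from the sample labels, which do not say that replicates of a group came from separate mice, so p-values measure the spread between these samples. Counts were filtered with filterByExpr (minimum count 10), scaled by TMM and tested with edgeR 4.0.16 in R 4.3.3 (quasi-likelihood F-test, two-sided, Benjamini-Hochberg over all genes tested, threshold 0.05). Genotypes were compared within each muscle (8 libraries), and muscles and the interaction in 1 fit of 16 libraries with 4 group means. CPM used the TMM scaling of all 16 libraries. RPKM used the exon length of GENCODE vM21 transcripts linked to RefSeq, which approximates the authors' annotation. Sequences came from RefSeq promoters (GRCm38.p6). The fits were tested on simulated counts with 200 changed genes (log2 change of 2). Recovered were 179 in Gas, 191 in Sol, 179 and 187 between muscles in WT and LSD1-mKO, and 146 in the interaction. Unchanged genes called were, in the same order, 18, 17, 10, 12 and 7. Each gene was drawn independently, with no shift shared between genes. Smaller changes were not simulated, so recovery of differences as small as the genotype estimates of the regulators was not tested.

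All 8 regulators are named in each comparison, relatives where called, and the 3 most correlated genes of each (mean of at least 5 CPM). Some genes that this rule names are not reported here. The members and lists were chosen with earlier results of these data known. Marker lists of myofibers, satellite cells, lymphatic and blood endothelium, fibroblasts, tendon, adipocytes, Schwann cells and leukocytes were summed per library. Same-numbered libraries were checked for pairing by the correlation of their deviations from group means: it was 0.212 to 0.359 in the 5 LSD1-mKO pairs of muscles, -0.515 to 0.123 in the WT pairs, -0.16 to 0.307 between genotypes in Gas and -0.00616 to 0.128 in Sol. The main fits treated all libraries as unpaired. Pairing entered only through the replicate block among the alternatives, which used the replicate numbers in every fit. Only for the LSD1-mKO muscles did the data, and not the labels, show such a pairing. Alternatives were other scaling (RLE), no filter, DESeq2 1.42.0, the exact test, the replicate block, the ribosomal protein level as a covariate, other sets of libraries in the fit, and each library left out in turn.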

Additional observations from a re-analysis of the deposited data

Results flagged for a closer look

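Of 16 combinations of regulator and LSD1-mKO group examined for a library that stands apart, 1 did. *Sox6* in LSD1-mKO Sol replicate 1 was at 30.03 CPM, while the other four libraries were at 63.0 to 72.7 CPM, and the gap covered 0.774 of the range of the group. Chance gives such a library in about 1 of 20 groups, or 0.8 of 16.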

How the results depend on the processing

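Of the fold changes of the 8 regulators in 5 comparisons, 754 values under alternatives kept direction and side of the threshold, 12 came to pass it, 1 ceased to pass and 41 changed sign. *Prox1* kept its call in both genotypes, *Pitx3* in WT, and *Eya4* and *Sox6* in LSD1-mKO under every alternative run. The value that ceased to pass was *Eya4* in WT on WT libraries alone. Those that came to pass were *Tbx15*, *Six4* and *Sox6* (-1.52 with the ribosomal protein covariate, adjusted p = 0.0249) in WT, and *Pitx3* and *Tbx15* in LSD1-mKO. RLE scaling moved the median of all genes by less than 0.1. In LSD1-mKO muscles, RLE turned the split of calls from 1768 higher and 1599 lower to 1671 and 1716. The cause of these changes was not tested.

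The number of genes called between genotypes in Gas, 4, was 10 without the filter, 132 by DESeq2, 103 by the exact test, 62 in the fit of 16 libraries and 1 to 7 with single libraries left out. In Sol, 129 became 336 without the filter, 605 by DESeq2, 412 with the replicate block, 289 with the ribosomal protein covariate, 558 by the exact test, 23 without the library of high ribosomal protein level and 11 to 228 with single libraries left out. Between muscles in WT, 2337 became 1011 on WT libraries alone and 1132 to 2839 with single libraries left out. In LSD1-mKO, 3367 and 3 regulators became 3911 and 4 on LSD1-mKO libraries alone and 5067 and 5 with the replicate block added to that fit, an alternative chosen after seeing the data. The interaction gave 21 genes by DESeq2, 1 with the replicate block and 0 to 1 with single libraries left out. The replicate block in the other fits changed no call of a regulator, and all 10 LSD1-mKO libraries correlated best with their own number.

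Values that changed sign were small or uncalled. With the ribosomal protein covariate they were *Sox6* in Gas (-0.22), *Six4* between muscles in WT (-0.28) and LSD1-mKO (-0.43), *Pitx1* (0.58) and *Eya1* (-0.16) in LSD1-mKO, and the interaction of *Eya4* (0.27) and *Prox1* (0.15). Without the libraries of high ribosomal protein level they were *Prox1* in Sol (-0.18), and *Pitx1* in WT (-0.0414), in LSD1-mKO (0.0389) and in the interaction (0.0802). With the replicate block, *Pitx1* became -0.0505 in WT and 0.038 in the interaction, and *Eya1* 0.000923 in WT, which was 0.000701 without the filter. With single libraries left out, the genotype effect in Gas ranged from -0.46 to 0.0282 for *Eya1* and from -0.13 to 0.20 for *Sox6*, and in Sol from -0.42 to 0.083 for *Six4*, -0.20 to 0.24 for *Eya1*, -0.18 to 0.77 for *Prox1* and -0.18 to 0.0377 for *Tbx15*. The muscle difference ranged from -0.46 to 0.47 for *Pitx1* and -0.30 to 0.24 for *Eya1* in WT, and from -0.23 to 0.13 for *Pitx1* in LSD1-mKO. The interaction ranged from -0.54 to 0.42 for *Pitx1*, -0.0631 to 0.46 for *Eya1*, -0.49 to 0.25 for *Eya4* and -0.91 to 0.03 for *Prox1*. Depth limits *Prox1* and *Pitx1* in Gas most, where single libraries held few reads.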
